A study of Mus musculus with 18 samples.

Results

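Diacylglycerol is made at the membrane when phospholipase C cleaves phosphatidylinositol bisphosphate. Its best known receptors are the protein kinases C (PKC) and the protein kinases D (PKD), and the diacylglycerol kinases (DGK) remove it by converting it to phosphatidic acid. Expression of 10 genes of this step was examined in mouse heart, namely the PKC genes Prkca, Prkcb, Prkcd, Prkce and Prkch, the PKD gene Prkd1, and the DGK genes Dgka, Dgkd, Dgke and Dgkz. They were chosen by name for the role of their products, with earlier results of these data known. All 10, out of the 23457 genes of the count table, passed the filter on low counts. The chosen genes are part of larger families, whose other 12 members (6 PKC and PKD genes and 6 DGK genes) were measured beside them.

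The 18 hearts came from male C57BL/6 mice aged 17 weeks, 6 for each vector. All mice had received a serotype 6 adeno-associated virus (rAAV6) by tail vein, and none was left without virus. rAAV6-blank carries a promoter but makes no protein, rAAV6-PLCβ1a encodes FLAG-tagged PLCβ1a and rAAV6-PLCβ1b encodes FLAG-tagged PLCβ1b, the splice variants of phospholipase Cβ1. The study tests PLCβ1b against the empty vector and keeps PLCβ1a, which it describes as inactive in heart, as a closely related control. The comparison made here asks whether more phospholipase C is accompanied by a change in the genes that receive or remove its product. The sample labels name both ventricles as the tissue, whereas the methods name the left ventricle. Virus given by vein reaches other organs too, and the share of heart cells transduced was not measured here. Whole tissue was sequenced, so fewer cells of a type and less RNA per cell cannot be told apart.

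In the heart PKCα is known as the abundant conventional isoform that restrains contractility, PKCδ and PKCε as isoforms that need diacylglycerol but no calcium, and PKD1 as a kinase that phosphorylates class II histone deacetylases. The diacylglycerol kinases differ in their regulatory parts, with calcium-binding EF hands in the α isoform and a preference for arachidonate-containing diacylglycerol in the ε isoform. Most of these enzymes are controlled by phosphorylation, calcium and translocation to membranes, none of which is read by RNA sequencing.

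The shared feature of these proteins is the C1 domain, a zinc-binding fold in which 2 histidines and 6 cysteines follow in a set order. The coding sequence of 1 such stretch is shown for 4 of the genes. Capitals mark the 8 histidine and cysteine codons that matched a search pattern with variable gaps. In Prkch a lower-case tgc shortly before the last capital codon has the spacing of the last marked codon in Prkd1 and Dgkd. The last mark in Prkch therefore rests on the pattern alone. Whether these stretches bind diacylglycerol was not tested. Sequences were read from the GENCODE M21 transcripts (GRCm38, the build of mm10).
Prkch: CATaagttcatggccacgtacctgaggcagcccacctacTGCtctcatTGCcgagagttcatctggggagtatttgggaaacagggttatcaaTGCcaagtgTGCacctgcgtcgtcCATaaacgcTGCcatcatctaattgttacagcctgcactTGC
Prkd1: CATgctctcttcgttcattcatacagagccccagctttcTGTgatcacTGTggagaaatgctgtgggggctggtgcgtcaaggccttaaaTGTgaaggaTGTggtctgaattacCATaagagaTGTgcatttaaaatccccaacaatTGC
Dgkd: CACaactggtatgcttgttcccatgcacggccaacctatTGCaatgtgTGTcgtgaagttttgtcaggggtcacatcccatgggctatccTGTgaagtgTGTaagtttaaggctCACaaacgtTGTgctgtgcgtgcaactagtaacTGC
Dgke: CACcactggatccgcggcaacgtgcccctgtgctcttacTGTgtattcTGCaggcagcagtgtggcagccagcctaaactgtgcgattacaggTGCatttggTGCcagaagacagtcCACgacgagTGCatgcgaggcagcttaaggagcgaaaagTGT

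The stretches of Prkch (chr12:73691634-73696245, plus strand, introns included) and Prkd1 (chr12:50425547-50428199, minus strand) begin in exon 3. That of Dgkd lies in exons 5 to 6 (chr1:87915528-87916421, plus strand) and that of Dgke in exons 1 to 2 (chr11:89055451-89060022, minus strand). The 5 PKC genes, Prkd1, Dgka and Dgkd each had 2 stretches that matched the pattern and Dgke had 1, while no match was found in the transcript of Dgkz that was searched. The pattern misses domains with other spacing, so these matches do not count the C1 domains of a protein, and Dgkz may have some. The second stretches of Prkce and Prkch encoded the same residue at 42 of 50 codons and had the same base at 116 of 150 positions. The first stretches of Prkd1 and Dgkd, both printed above, encoded the same residue at 20 of 50 codons.

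The kinases of both families were expressed at low to moderate levels, and in every vector group the DGK sum was above the PKC sum. In blank hearts the mean of Dgkz was 5.54 ± 0.280 FPKM (SD, n = 6), where FPKM are read pairs scaled to exon length and library size and can be compared between genes. Dgkd followed with 4.85 ± 0.278, Prkch with 3.91 ± 0.659, Prkce with 3.12 ± 0.316, Dgke with 2.52 ± 0.218 and Dgka with 2.21 ± 0.262 FPKM. Prkca had 2.16 ± 0.111, Prkcd 1.87 ± 0.203, Prkd1 1.04 ± 0.120 and Prkcb 0.405 ± 0.0639 FPKM. The ranges of neighbours in this order overlapped, except that every blank heart had more Prkcd than the highest Prkd1 level and more Prkd1 than the highest Prkcb level. The order was the same in counts per kilobase of merged exons. Dgka and Prkca were the least settled neighbours, Dgka being the higher of the 2 in 6 of 18 hearts by FPKM and in 17 of 18 by counts per kilobase.

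Within the PKC family, the 5 chosen genes held 77.7 ± 1.44% of the FPKM summed over the 9 PKC genes (SD, n = 18). Prkch, which encodes the calcium-independent isoform PKCη, had the largest share, 26.2 ± 2.58%, followed by Prkce with 20.9 ± 1.62%, Prkca with 15.3 ± 1.36% and Prkci, which encodes an atypical isoform that does not bind diacylglycerol, with 14.1 ± 1.02%. Prkcd had 12.6 ± 1.57% and Prkcb 2.701 ± 0.488%. Prkcq, the calcium-independent isoform PKCθ, had 4.78 ± 0.840%. In the PKD family Prkd1 had 15.1 ± 1.49% of the sum, and Prkd3 had 54.4 ± 3.34% and Prkd2 30.5 ± 3.41%. The 4 chosen DGK genes held 84.0 ± 0.979% of the sum over 10 DGK genes, with 31.2 ± 1.62% for Dgkz, 26.5 ± 1.22% for Dgkd, 14.6 ± 1.15% for Dgke and 11.6 ± 1.05% for Dgka. Of the others, Dgkh had 8.93 ± 1.11% and Dgkq 5.39 ± 0.783%. Dgkq shares 727 exon bases with Tmem175 on the opposite strand.

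**Figure D1:**
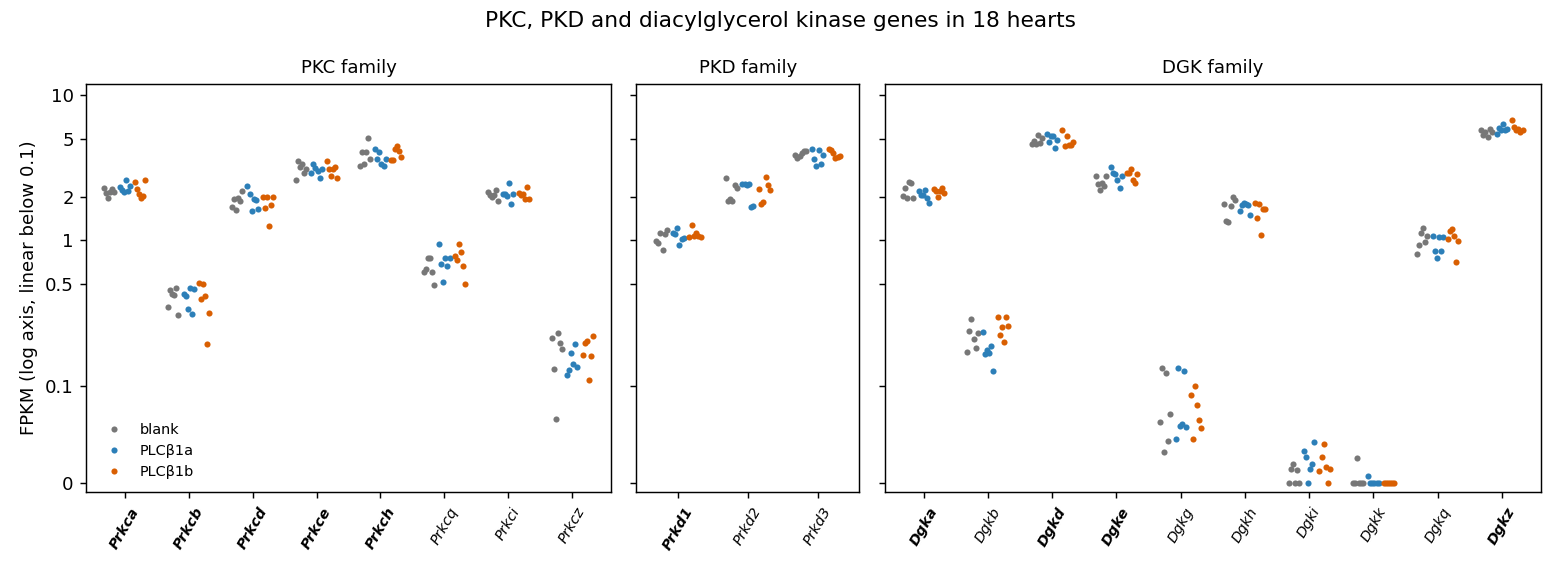
FPKM of PKC, PKD and DGK genes in each of 18 hearts (points, colored by vector group), on a log axis that is linear below 0.1, with the names of the 10 chosen genes in bold. Dgkz and Dgkd were the highest DGK genes and Prkch the highest PKC gene, and Prkd3 was above Prkd1.

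The ratio of the DGK sum to the PKC sum was 1.24 ± 0.0717 in blank hearts, 1.27 ± 0.0438 with PLCβ1a and 1.27 ± 0.0456 with PLCβ1b (SD, n = 6). The ranges of the 3 groups overlapped, from 1.15 to 1.33, from 1.21 to 1.32 and from 1.1996 to 1.32. The family sums were as close, with 14.7 ± 0.917, 14.7 ± 0.917 and 14.8 ± 0.641 FPKM for PKC and 18.1 ± 0.639, 18.6 ± 0.792 and 18.8 ± 1.25 FPKM for DGK in the same order of groups.

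Counts per heart were 13246339 to 24155465, of which 3908354 to 7591558 lay on nuclear genes. Plcb1, the gene carried by both PLC vectors, had 0.986 ± 0.113 FPKM with the blank vector, 3.86 ± 0.738 with PLCβ1a and 8.28 ± 3.38 with PLCβ1b (SD, n = 6), with no overlap between either PLC group and blank. Its log2 fold change against blank was 2.90 in PLCβ1b hearts (FDR 8.2e-05 in edgeR's quasi-likelihood test) and 1.82 in PLCβ1a hearts (FDR 0.0299). Between PLCβ1b and PLCβ1a hearts it was 1.09 (unadjusted p = 0.00014, FDR 0.801 in the same test). The PLC groups thus differed in mean Plcb1 level as well as in splice variant, and the parts of the level and the variant were not tested. Among the marker lists, the 6 cardiomyocyte genes summed to 9485 to 11071 FPKM per heart, whereas the sums of 7 T lymphocyte and 4 B lymphocyte genes stayed at or below 0.4996 and 0.792 FPKM and none of these genes passed the filter on low counts.

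None of the 10 genes was called in any comparison. Hearts expressing PLCβ1b had a median log2 fold change against blank of 0.05 over the 10 genes, with 6 higher and 4 lower, where the median over all 12281 genes tested was -0.00089 and 49.6% were higher. A call required an FDR below 0.1 in edgeR's quasi-likelihood test, with Benjamini-Hochberg adjustment across the whole table, which 0.0977% of all genes met between PLCβ1b and blank hearts, 0.138% between PLCβ1a and blank hearts and 0% between PLCβ1b and PLCβ1a hearts. Also 0 of the 10 had an unadjusted p under 0.05 in each comparison, against 7.41%, 8.58% and 4.42% of all genes. DESeq2 likewise called 0 of the 10 in each comparison. The lowest FDR of a member was 0.757 for PLCβ1b against blank, 0.616 for PLCβ1a against blank and 1.0 for PLCβ1b against PLCβ1a. Taken without sign, the log2 fold changes of the 10 genes had medians of 0.05, 0.05 and 0.03, where those of all genes had 0.07, 0.07 and 0.06. All genes were not matched to the 10 in count level, so these medians do not show that the 10 changed less. The comparisons with blank share the same 6 blank hearts. Between PLCβ1b and PLCβ1a hearts even Plcb1 was not called (log2 fold change 1.09, FDR 0.801 in edgeR's quasi-likelihood test). The lack of calls in that comparison therefore does not show that a gene was unchanged.

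**Figure D2:**
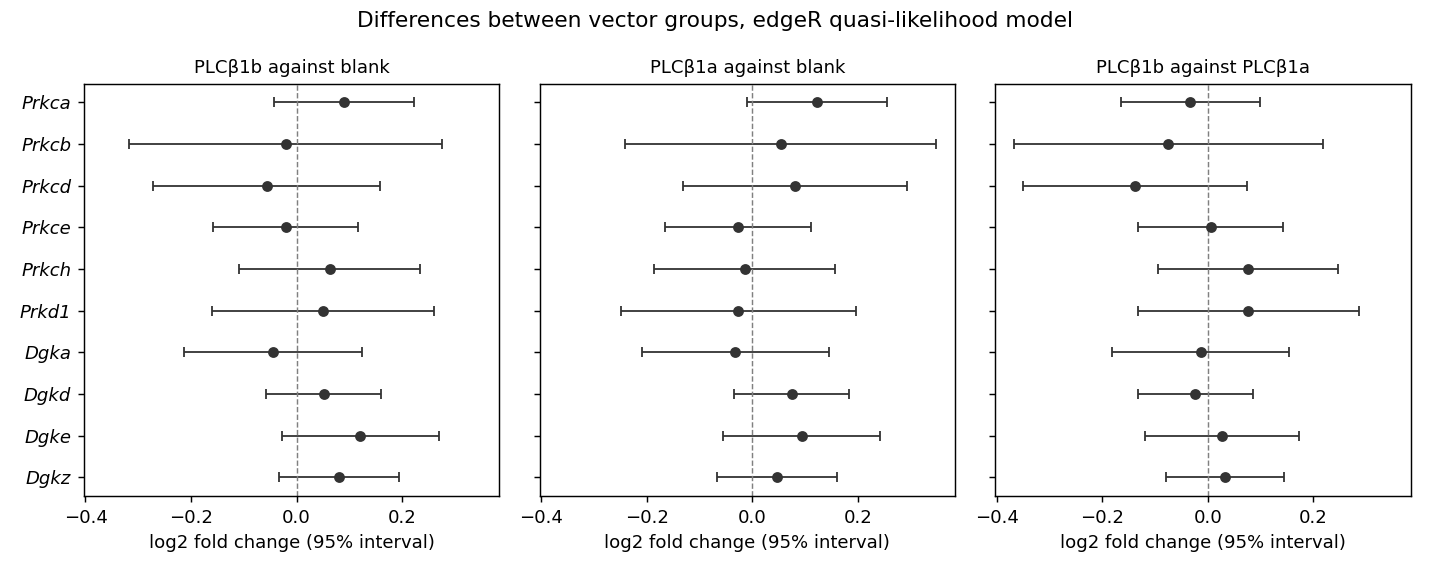
Log2 fold changes (points) and 95% intervals (bars) of the 10 genes in the 3 comparisons, from edgeR's quasi-likelihood model. All 30 intervals include 0, and those of Prkcb are the widest.

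Prkca encodes PKCα and is found in mm10 on chromosome 11 from 107933387 to 108343888. In CPM (counts scaled to TMM-adjusted library size, which compare hearts and not genes), blank hearts had 14.6 at the lowest, 14.9 at the median and 17.0 at the highest. PLCβ1a hearts had 15.3, 16.2 and 18.4 CPM, and PLCβ1b hearts 14.5, 15.7 and 19.2 CPM, in the same order. All 6 PLCβ1a hearts were above the blank median and 2 were above every blank heart. Of the PLCβ1b hearts 2 were above every blank heart. Another 2, with 14.60 and 14.54 CPM, were barely below the lowest blank value of 14.61. The fold change was 1.09 for PLCβ1a against blank (95% interval 0.993 to 1.19, FDR 0.616 in edgeR's quasi-likelihood test) and 1.06 for PLCβ1b (0.971 to 1.17, FDR 0.812). Between PLCβ1b and PLCβ1a it was 0.977 (0.892 to 1.07).

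Prkcb, the conventional isoform PKCβ, was the lowest of the 10 and the least precisely measured, with 25 to 84 counts per heart. It lies on chromosome 7 from 122289125 to 122634401. Its CPM ran from 2.25 through a median of 3.12 to 3.58 in blank hearts, from 2.56 through 3.20 to 3.57 with PLCβ1a and from 1.57 through 3.07 to 3.68 with PLCβ1b. PLCβ1a hearts lay within the blank range. Of the PLCβ1b hearts, 2 (3.68 and 3.60 CPM) were barely above the highest blank value of 3.58, and heart 16 was below every other heart. The fold change against blank was 0.986 in PLCβ1b (95% interval 0.802 to 1.21) and 1.04 in PLCβ1a hearts (0.846 to 1.27). Its biological coefficient of variation was 0.124, at percentile 87.7 of all genes tested.

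The calcium-independent isoforms Prkcd (chromosome 14 from 30595354 to 30626208), Prkce (chromosome 17 from 86167785 to 86657919) and Prkch (chromosome 12 from 73585041 to 73778184) encode PKCδ, PKCε and PKCη. Prkcd had 4.28, 4.67 and 5.35 CPM (lowest, median and highest) in blank hearts, 4.003, 5.22 and 5.80 with PLCβ1a and 3.57, 4.62 and 5.65 with PLCβ1b. The groups overlapped, and 5 of 6 PLCβ1b hearts were at or below the PLCβ1a median. The fold change was 0.961 for PLCβ1b (95% interval 0.828 to 1.12) and 1.06 for PLCβ1a against blank (0.913 to 1.23), and 0.909 for PLCβ1b against PLCβ1a (0.785 to 1.05), the largest difference of the 10 genes in that last comparison.

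Prkce had 13.8, 16.04 and 18.8 CPM in blank hearts, 14.6, 15.3 and 17.2 with PLCβ1a and 13.9, 16.2 and 16.8 with PLCβ1b. All 12 hearts of the PLC groups fell inside the blank range. Its fold changes against blank were 0.986 in PLCβ1b (95% interval 0.896 to 1.08) and 0.982 in PLCβ1a hearts (0.892 to 1.08). Prkch had 9.48, 10.6 and 13.3 CPM in blank hearts, 9.46, 10.8 and 12.1 with PLCβ1a and 9.50, 11.7 and 13.4 with PLCβ1b. In PLCβ1b hearts 5 of 6 values were above the blank median, with a fold change of 1.04 (0.928 to 1.18), and in PLCβ1a hearts it was 0.991 (0.880 to 1.12).

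Prkd1 encodes PKD1, which is activated by diacylglycerol and by PKC, and lies on chromosome 12 from 50341232 to 50649223. Its CPM were 2.90, 4.05 and 4.51 in blank hearts, 3.39, 3.92 and 4.24 with PLCβ1a and 3.68, 4.04 and 4.41 with PLCβ1b. Every heart of the PLC groups lay inside the blank range, whose lowest value was that of blank heart 33. The fold change against blank was 1.04 in PLCβ1b (95% interval 0.895 to 1.198) and 0.982 in PLCβ1a hearts (0.841 to 1.15). The variation of Prkd1 between hearts of a group, 10.5% of the mean, was no larger than the 11.9% that counting error alone gives at its 53 to 96 counts per heart.

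**Figure D3:**
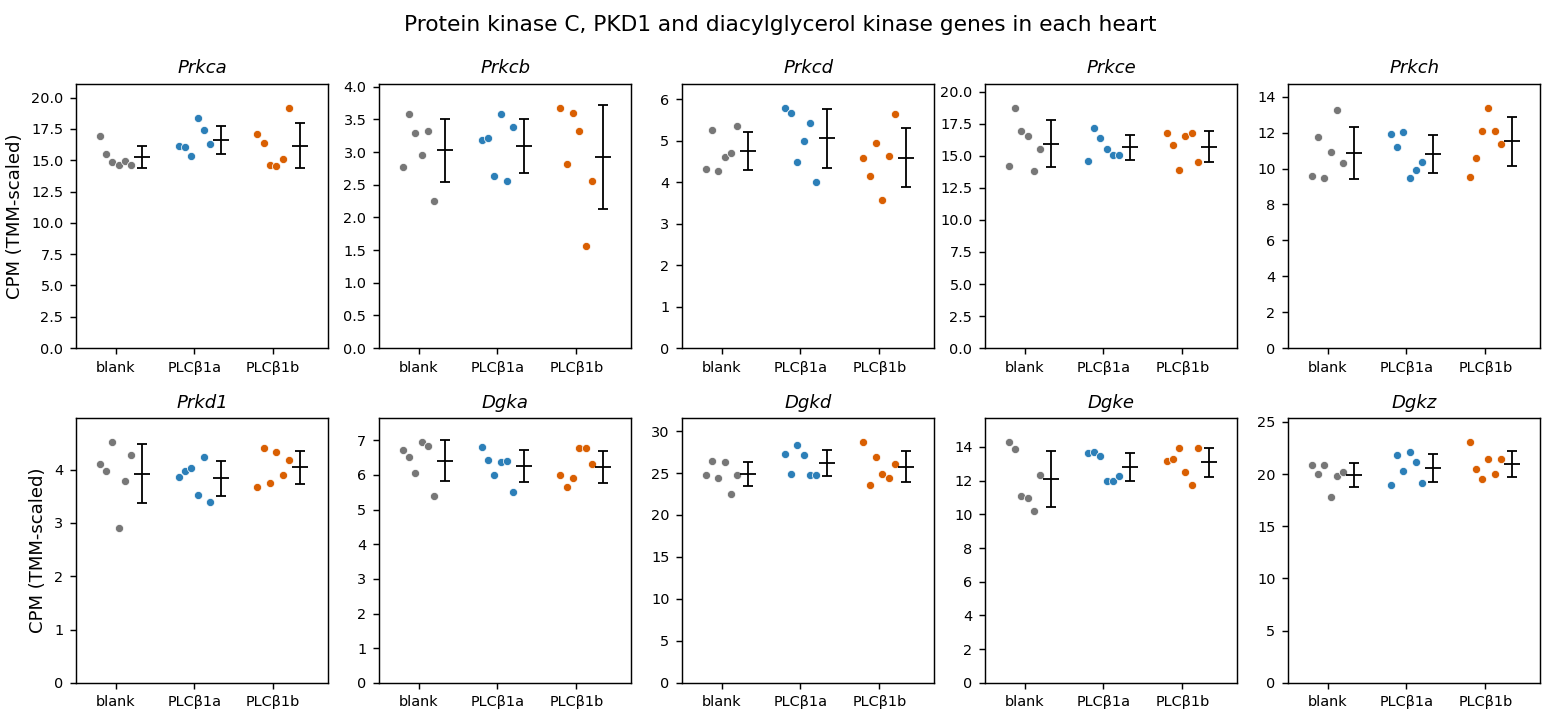
TMM-scaled CPM of the 10 genes in each heart (points) by vector group, with the group mean and SD (line and bars, n = 6), each axis starting at 0. The groups overlap for every gene, as for Dgke, in which blank hearts span 10.2 to 14.3 CPM and PLCβ1b hearts 11.7 to 13.95 CPM.

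Of the 4 chosen diacylglycerol kinases, Dgke had the largest difference between PLCβ1b and blank hearts. It encodes DGKε and lies on chromosome 11 from 89037582 to 89060748. Blank hearts had 10.2, 11.7 and 14.3 CPM (lowest, median and highest), PLCβ1a hearts 11.99, 12.9 and 13.7, and PLCβ1b hearts 11.7, 13.2 and 13.95. All 12 hearts of the PLC groups were above the blank median but none was above the highest blank heart. The fold change was 1.09 in PLCβ1b (95% interval 0.981 to 1.21, unadjusted p = 0.108 and FDR 0.757 in edgeR's quasi-likelihood test) and 1.07 in PLCβ1a hearts (0.963 to 1.18).

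Dgkz, which encodes DGKζ, lies on chromosome 2 from 91932822 to 91963563. It had 17.8, 20.1 and 20.9 CPM in blank hearts, 18.9, 20.7 and 22.1 with PLCβ1a and 19.6, 20.96 and 23.04 with PLCβ1b. In each PLC group 3 of 6 hearts were above every blank heart and none was below. The lowest blank value was that of heart 33, and the other blank hearts had 19.8 to 20.9 CPM. PLCβ1a hearts 7 (18.9 CPM) and 21 (19.2) and PLCβ1b heart 8 (19.6) were below those others. The fold change was 1.06 in PLCβ1b (95% interval 0.978 to 1.14) and 1.03 in PLCβ1a hearts (0.955 to 1.12).

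Dgkd, which encodes DGKδ, lies on chromosome 1 from 87853287 to 87944489 and was among the most precisely measured of the 10, with 310 to 676 counts per heart. Its CPM were 22.5, 24.8 and 26.5 in blank hearts, 24.7, 26.01 and 28.3 with PLCβ1a and 23.5, 25.5 and 28.6 with PLCβ1b. PLCβ1a heart 11 and PLCβ1b heart 4 were the highest of their groups, and no heart of a PLC group was below all blank hearts. The fold change was 1.04 in PLCβ1b (95% interval 0.960 to 1.12) and 1.05 in PLCβ1a hearts (0.976 to 1.14).

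Dgka encodes DGKα and lies on chromosome 10 from 128720136 to 128744056, where it shares 103 exon bases with Pmel on the opposite strand; the authors counted reads by strand. It had 5.39, 6.62 and 6.93 CPM in blank hearts, 5.49, 6.39 and 6.81 with PLCβ1a and 5.64, 6.15 and 6.78 with PLCβ1b, so both PLC groups lay inside the blank range. The fold changes against blank were 0.969 (95% interval 0.863 to 1.09) and 0.978 (0.865 to 1.11) for PLCβ1b and PLCβ1a. As for Prkd1, its variation within groups, 8.04%, was below the 9.45% given by counting error. For the other 8 genes the variation within groups, from 6.08% for Dgkz to 19.4% for Prkcb, was above their counting error.

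Estimates this small do not have a settled direction for every gene. Prkce, Prkcb, Prkch, Prkd1, Dgka and Dgkd each changed sign in at least 1 comparison when a heart was left out, and Prkcb, Prkd1 and Dgka also with limma on log2 FPKM. Prkca, Prkcd, Dgke and Dgkz kept their sign in each of the 3 comparisons under all settings tried, with no call under any of them.

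Genes of the same pathway were read from 6 lists, and none of their genes was called in any comparison. Those described were in part picked for the lowest unadjusted p in PLCβ1b against blank, so their differences there are selected. Among the 6 other PKC and PKD genes the median log2 fold change was 0.07 in PLCβ1b against blank hearts, and Prkcq (0.24, FDR 0.782 in edgeR's quasi-likelihood test) and Prkd2 (0.09) were among the 3 with the lowest unadjusted p. Prkd3, Prkd2 and Prkci had the highest levels, 3.89, 2.19 and 2.07 FPKM over the 18 hearts. Of the 6 other DGK genes 3 passed the filter on low counts, and Dgkb had the lowest p, with a log2 fold change of 0.25 (FDR 0.818). Dgkh and Dgkq had mean levels of 1.65 and 0.997 FPKM, and Dgki and Dgkk were at 0 in some hearts.

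Proteins with a C1 domain other than the kinases, and diacylglycerol-gated channels, made up a list of 15, of which 10 were tested. At an unadjusted p under 0.05, 2 were higher and 0 lower in PLCβ1b hearts, and 1 was higher and 1 lower in PLCβ1a hearts, where 7.41% and 8.58% of all genes reached it. Rasgrp3, an exchange factor for Ras and Rap that binds diacylglycerol, had 17.4, 19.6 and 24.4 CPM in blank hearts (lowest, median and highest) and 20.97, 22.6 and 27.1 in PLCβ1b hearts, with all 6 above the blank median. Its log2 fold change was 0.20 in PLCβ1b (FDR 0.574 in edgeR's quasi-likelihood test) and 0.18 in PLCβ1a hearts (FDR 0.517). Of 28 other fits, 1 called it in PLCβ1b, that with 1 surrogate variable (FDR 0.0907), and 0 in PLCβ1a. Cdc42bpb, the kinase MRCKβ, had 0.10 (FDR 0.659), and Rasgrp2, an exchange factor for Rap, had -0.17 (FDR 0.686) in PLCβ1b against blank and -0.22 (FDR 0.469) in PLCβ1a against blank. Rasgrp3, Cdc42bpb and Cdc42bpa had the highest levels of the list, 5.32, 6.19 and 4.44 FPKM, with Rasgrp3 close to Dgkz.

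Enzymes of diacylglycerol and phosphatidic acid metabolism made up a list of 20 in the count table, of which 19 were tested. None had an unadjusted p under 0.05 against blank in either PLC group, where 7.41% (PLCβ1b) and 8.58% (PLCβ1a) of all genes did. Between PLCβ1b and PLCβ1a hearts 1 was lower and 0 higher at that p, where 4.42% of all genes reached it. Dgat2, which makes triglyceride from diacylglycerol, had the highest level with 54.1 FPKM, followed by the lipase Pnpla2 with 24.98 and the phosphatidate phosphatase Lpin1 with 22.8 FPKM. These levels were above that of every PKC, PKD and DGK gene. The lowest p in PLCβ1b against blank hearts belonged to Agpat2, which makes phosphatidic acid (log2 fold change 0.16, FDR 0.734 in edgeR's quasi-likelihood test), the diacylglycerol lipase Dagla (0.33, FDR 0.743) and the phospholipase D gene Pld1 (-0.14, FDR 0.762).

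Of proteins that anchor, prime or dephosphorylate PKC, all 12 in the count table were tested, with 1 higher and 1 lower at an unadjusted p under 0.05 in PLCβ1b hearts (7.41% of all genes) and 2 higher and 1 lower in PLCβ1a hearts (8.58% of all genes). Akap5, a scaffold that binds PKC and protein kinase A, had 2.25, 3.71 and 4.03 CPM in blank hearts, 3.42, 3.69 and 5.004 with PLCβ1a and 3.77, 4.86 and 5.13 with PLCβ1b. In PLCβ1b 5 of 6 hearts were above every blank heart, and the log2 fold change was 0.43 ± 0.12 (SE; FDR 0.235 in edgeR's quasi-likelihood test). Of 27 other fits, 1 called it, that with 1 surrogate variable (FDR 0.0997). In PLCβ1a it was 0.15 (FDR 0.784). Gnb2l1, which encodes the PKC receptor RACK1, had -0.11 (FDR 0.601) and Pdlim5, a Z-disc protein that binds PKC, -0.08 (FDR 0.744). In PLCβ1a hearts Gnb2l1 had -0.13 (FDR 0.379), and the genes higher at that p were the scaffolds Akap12 (0.22, FDR 0.256) and Akap13 (0.09, FDR 0.538), named after their values were seen. Akap12 was called there in 1 of 28 other fits, that without PLCβ1a heart 21 (FDR 0.0966). Ldb3, Pdlim5 and Gnb2l1 had 153.0, 125.8 and 77.8 FPKM.

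Substrates of PKC and PKD, 11 of 13 listed, had 2 higher and 0 lower at an unadjusted p under 0.05 in PLCβ1b against blank hearts (7.41% of all genes) and 0 in PLCβ1a against blank hearts (8.58%). Marcks, a membrane protein that is a classical PKC substrate, had 18.7, 20.7 and 24.5 CPM in blank hearts, 19.6, 22.4 and 24.4 with PLCβ1a and 23.6, 25.02 and 27.7 with PLCβ1b. All 6 PLCβ1b hearts were above the blank median and 3 were above every blank heart, whereas no PLCβ1a heart was above every blank heart. The log2 fold change was 0.26 ± 0.07 in PLCβ1b (SE; FDR 0.196 in edgeR's quasi-likelihood test) and 0.07 in PLCβ1a (FDR 0.809), and 0.19 between them (unadjusted p = 0.00835, FDR 1.0). It was called in PLCβ1b in 4 of 28 other fits, those without the filter on low counts (FDR 0.0727), with 1 surrogate variable (0.0973), without blank heart 26 (0.0799) and without blank heart 32 (0.0739). Gja1, the gap junction protein connexin 43, had 0.12 (FDR 0.632) and Hdac5, a deacetylase phosphorylated by PKD1, 0.12 (FDR 0.686). Tnni3, the cardiac troponin I, had the highest level of the list, 1822 FPKM, followed by Gja1 with 69.8 and Pebp1, an inhibitor of Raf, with 32.5 FPKM.

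**Figure D4:**
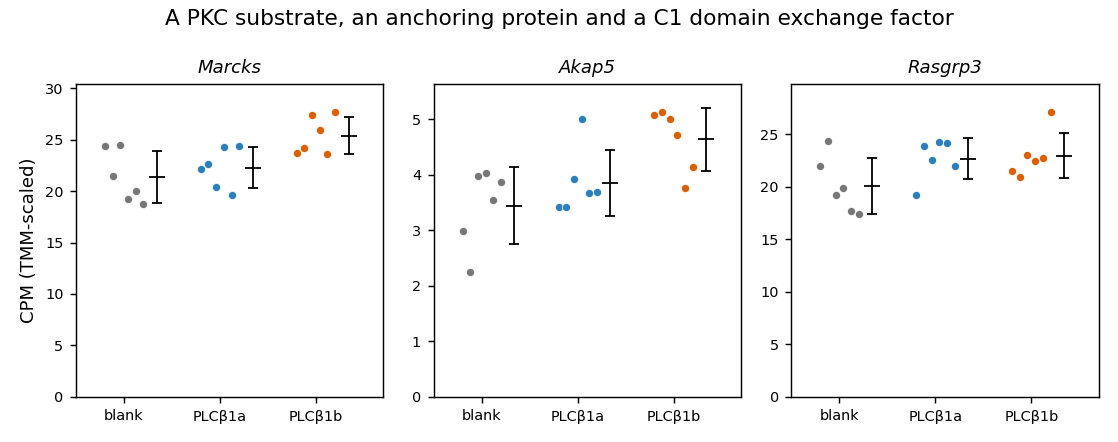
TMM-scaled CPM of Marcks, Akap5 and Rasgrp3 in each heart (points) by vector group, with the group mean and SD (line and bars, n = 6) and axes from 0. PLCβ1b hearts lie above the blank median for all 3 genes, while their ranges still overlap those of blank hearts. The 3 genes were named for a low unadjusted p in PLCβ1b against blank, so this position follows in part from the choice.

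Marker levels of other cell types were compared because PKC and DGK genes are expressed in many of them. No marker was called. Between PLCβ1b and blank hearts, 2 of 7 fibroblast markers (Lum, with a log2 fold change of 0.23, and Col3a1, 0.19), Cdh5 among endothelial markers (0.14) and Pdgfrb among smooth muscle and pericyte markers (0.17) were higher at an unadjusted p under 0.05, and the endothelial marker Flt1 (-0.13) was lower, while 0 of 6 cardiomyocyte and 0 of 8 macrophage markers reached it, where 7.41% of all genes did. Between PLCβ1a and blank hearts, where 8.58% of all genes reached it, Lum, Col3a1, Cdh5 and the red blood cell gene Alas2 (0.63) were higher, and Flt1 and the macrophage gene Fcgr1 (-0.56) were lower. The summed levels overlapped, with 178.3 to 208.9 FPKM in blank and 187.6 to 220.3 in PLCβ1b hearts for fibroblasts, 88.9 to 106.3 and 92.4 to 112.9 for endothelium, 109.6 to 126.6 and 112.5 to 120.5 for smooth muscle and pericytes, and 38.7 to 53.4 and 36.8 to 53.8 for macrophages. In PLCβ1a hearts these sums were 176.2 to 222.5, 95.1 to 102.8, 107.4 to 125.0 and 38.1 to 49.8 FPKM. Red blood cell genes ran from 361.6 to 564.5 FPKM in blank hearts, 505.2 to 782.9 with PLCβ1a and 407.3 to 694.0 with PLCβ1b. Of the 5 red blood cell genes in the count table, however, 4 had 0 counts in every heart and 1 was tested. The 3 atrial genes ran from 31.5 to 41.4, 15.3 to 69.1 and 17.9 to 37.8 FPKM in the same order of groups. The part of these cell types in the values of Marcks, Akap5 and Rasgrp3 was not tested.

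Across the 18 hearts, each centered on its group, none of 60 relations between the 10 genes and 6 marker lists had an adjusted p under 0.05. The largest Pearson r was that of Prkcb with fibroblast markers, with an r of 0.58 and a Spearman rho of 0.46 (permutation p = 0.0131 and 0.0619, Benjamini-Hochberg adjusted p = 0.571 and 0.608, r 0.52 once the 2 hearts with the most extreme marker levels were left out). Prkd1 had an r of 0.53 and a rho of 0.52 with smooth muscle and pericyte markers (permutation p = 0.0381 and 0.0435, adjusted p = 0.571 and 0.608, r 0.47 without 2 hearts). By rank, Prkcd with atrial markers was the strongest, with a rho of -0.62 and an r of -0.50 (permutation p = 0.0182 and 0.0693, adjusted p = 0.545 and 0.571, r -0.44 without 2 hearts). Prkcb with atrial markers had a rho of 0.55 and an r of 0.37 (permutation p = 0.0168 and 0.0654, adjusted p = 0.545 and 0.571, r 0.43 without 2 hearts). Dgkd had an r of 0.50 and a rho of 0.45 with endothelial markers (permutation p = 0.0449 and 0.0811, adjusted p = 0.571 and 0.608, r 0.35 without 2 hearts).

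**Figure D5:**
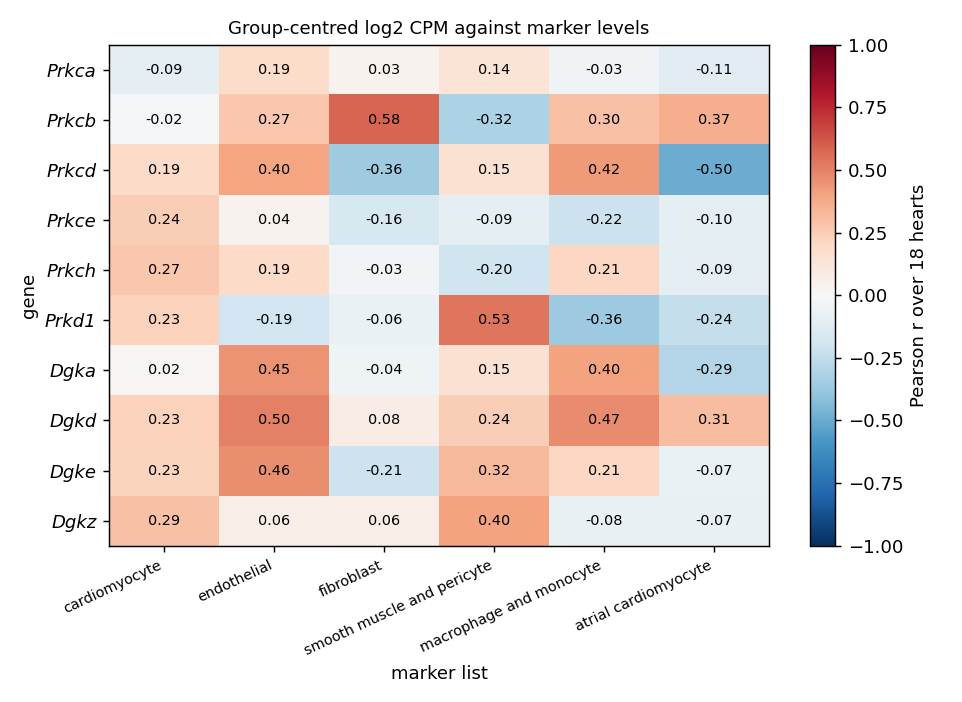
Pearson r (color and number) between the log2 CPM of each gene (rows) and the mean log2 CPM of each marker list (columns) over 18 hearts, all centered on group means. The highest r is 0.58, of Prkcb with fibroblast markers, and the lowest -0.50, of Prkcd with atrial markers.

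No pair of the 10 genes passed the test of varying together between hearts. Over 45 pairs the lowest adjusted p was 0.748 for Pearson r, and the strongest relation was a negative one between Prkca and Prkch (r -0.56, rho -0.59, permutation p = 0.0223 and 0.0165, adjusted p = 0.748 and 0.673, r -0.65 without 2 hearts). Prkca and Dgkz had an r of 0.48 and a rho of 0.45 (permutation p = 0.0551 and 0.0767, adjusted p = 0.748 and 0.855, r 0.50 without 2 hearts). None of the 10 genes followed the total number of counts per heart, mitochondrial genes included (lowest adjusted permutation p = 0.556).

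Within each PLC group, hearts with more Plcb1 were compared with those with less, in 20 relations over 6 hearts each. By Pearson r the strongest was Dgka in PLCβ1a hearts, with an r of -0.94 and a rho of -0.77 (exact permutation p = 0.00833 and 0.103, adjusted p = 0.167 and 0.685). Once the 2 hearts with the most extreme Plcb1 were left out its r was -0.43. Too few hearts remain, over a narrower range of Plcb1, to tell whether the relation rests on those 2. Prkcd in the same group had an r of -0.81 and a rho of -0.77 (exact permutation p = 0.0458 and 0.103, adjusted p = 0.389 and 0.685), which became -0.022 without 2 hearts. In PLCβ1b hearts, whose Plcb1 ran from 23.2 to 69.99 CPM, Dgkz had an r of 0.79 and the largest rho, 0.83 (exact permutation p = 0.0583 for both, adjusted p = 0.389 and 0.685, r 0.28 without 2 hearts).

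The genes whose log2 CPM followed each member most closely over the 18 hearts, centered on groups, were chosen as the top 2 of 12280 genes, so high values are selected and carry no p. Prkca was nearest to Gsk3b (r 0.86), which encodes a kinase that PKC can phosphorylate, and to Selplg (0.79). Prkcb was nearest to Large (0.89) and Naa40 (0.83), Prkcd to Dph2 (0.77) and Scarf2 (0.75), Prkce to Cuta (0.75) and Vcp (0.74), and Prkch to Cdk11b (0.84) and Plaa (0.79). Prkd1 was nearest to Opcml (0.81) and Abcb4 (0.79). Among the kinases that remove diacylglycerol, Dgka was nearest to Sh3rf1 (0.88) and Ezh2 (0.84), Dgkd to Mtbp (0.82) and Kif5c (0.81), Dgke to Arid5b (0.86) and Ap3b1 (0.80), and Dgkz to Flcn (0.77) and Tbc1d24 (0.77). No gene was among the nearest of 2 members, and no member was nearest to another.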

How the data were processed

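RNA of 18 hearts, each from a different mouse, was sequenced in pairs with the strand kept, after removal of ribosomal RNA. Reads had been aligned to mm10 (TopHat2 2.0.10, Bowtie2) and assigned to genes by HTSeq. The deposited gene counts are raw whole numbers, which the authors did not normalize. The program behind the deposited FPKM is not given in the sources used here, although Cufflinks 2.1 is listed in the submitters' processing notes. The deposited annotation gave gene positions.

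The model was edgeR's quasi-likelihood fit (4.0.16, R 4.3.3) of the 3 groups, with TMM scaling and robust estimation of the spread. filterByExpr (minimum count 10, minimum total 15) left 12281 of 23457 genes. Calls were made at an FDR below 0.1 over the whole table. The 3908354 to 7591558 nuclear counts per heart set the precision. The members and gene lists were chosen with earlier results of these data known. Named genes outside the 10 were, in each list, up to 3 with the lowest p in PLCβ1b against blank and up to 3 with the highest FPKM, plus any called, and 1 gene under this rule is not reported here. The nearest genes of each member were the 2 with the highest r. Intervals are 95% from the same model. Relations used 100000 permutations, or all 720 orders of 6 hearts.

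Alternatives were DESeq2 1.42.0, upper-quartile scaling, no filter, a minimum mean of 3 FPKM, a model of 2 groups, limma 3.58.1 on log2(FPKM + 0.1) and log2(FPKM + 1), exclusion of 37 mitochondrial genes, 1 surrogate variable (sva 3.50.0), an FDR below 0.05, and each heart left out. A fit without robust estimation was added after seeing the data. Programs were tested on simulated data. Figures were drawn with matplotlib 3.10.9, and tables were made in Python 3.11.15 with scipy 1.17.1, pandas 2.3.3 and numpy 2.4.6.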

Additional observations from a re-analysis of the deposited data

Results flagged for a closer look

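Each of the 10 genes was checked in each of the 3 vector groups for a heart that stood apart, and 2 of 30 checks found one, where chance gives about 1 in 20. Blank heart 26 had 17.0 CPM of Prkca, where the other 5 blank hearts had 14.6 to 15.5, a gap of 0.635 of the range of the group. Blank heart 33 had 17.8 CPM of Dgkz, where the others had 19.8 to 20.9, a gap of 0.645 of the range. Without blank heart 26 the log2 fold change of Prkca against blank was 0.12 in PLCβ1b and 0.15 in PLCβ1a hearts, where it was 0.09 and 0.12 with all hearts. Without blank heart 33 that of Dgkz was 0.048 and 0.016, where it was 0.08 and 0.05, and none of these was called.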

How the results depend on the processing

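None of the 10 genes was called in any comparison under 10 other settings, an FDR below 0.05 or any of 18 fits lacking a heart. The sign was the opposite in 9 of 274 estimates in PLCβ1b against blank, in 14 of 274 in PLCβ1a against blank and in 13 of 274 between the PLC groups. With limma on log2(FPKM + 0.1) and log2(FPKM + 1), the log2 fold change of Prkcb in PLCβ1a against blank was -0.0046 and -0.0015, that of Prkd1 there 0.051 and 0.028, and that of Dgka between PLCβ1b and PLCβ1a 0.076 and 0.053. With a heart left out, the log2 fold change of Prkcb ran from -0.11 to 0.093 in PLCβ1b against blank, from -0.031 to 0.11 in PLCβ1a against blank and from -0.16 to 0.038 between them. That of Prkce ran from -0.062 to 0.032, from -0.067 to 0.027 and from -0.017 to 0.039 in the same order. Prkd1 ran from -0.029 to 0.087 and from -0.11 to 0.011 against blank in PLCβ1b and PLCβ1a. In PLCβ1a against blank, Prkch ran from -0.047 to 0.055 and Dgka from -0.084 to 0.0044. Between PLCβ1b and PLCβ1a, Dgka ran from -0.049 to 0.018 and Dgkd from -0.058 to 0.0019. The cause was not tested.

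Over all genes, 12 were called in PLCβ1b against blank (2 without blank heart 34 to 18 without blank heart 32, and 3 with limma on log2(FPKM + 0.1) to 43 with 1 surrogate variable) and 17 in PLCβ1a against blank (3 without blank heart 34 to 19 without PLCβ1a heart 13, and 5 with limma on log2(FPKM + 1) to 46 with 1 surrogate variable). The limit of 3 FPKM kept 4 of the 10 genes. Relations to marker lists also had none past the threshold without centering. No paired analysis was possible because mouse numbers are not shared between groups. Counts of 25 to 84 per heart limit Prkcb most.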
